A study of Mus musculus with 31 samples.

Results

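The respiratory chain genes described here are the 101 of 38283 listed genes whose symbols name a subunit of complexes I to V, 88 of them encoded in the nucleus and 13 in the mitochondrial genome. They were chosen by symbol alone: names beginning Ndufa, Ndufb, Ndufc, Ndufs or Ndufv with a number, Sdha to Sdhd, Uqcr, Cyc1, Cox4 to Cox8, or Atp5, and the mt-Nd, mt-Co, mt-Atp and mt-Cyt genes, with names holding -ps left out. The nuclear members comprise 37 genes with complex I names, 6 of complex II, 9 of complex III, 18 of complex IV and 18 of complex V, and the mitochondrial members 7, none, 1, 3 and 2. The symbol rule also takes in Sdhaf1 and Sdhaf2, which are assembly factors of complex II, and Atp5l2, which GENCODE M21 lists as a processed pseudogene. Complexes were assigned by symbol alone, so Atp5s and Atp5sl were counted with complex V without a check that they are subunits of it.

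Pancreatic cells of C57BL/6 mice were taken at postnatal day 2, sorted, and measured by RNA-seq. All groups, controls included, carried an Nkx3.2-Cre allele, which is active in pancreatic mesenchyme, and YFP+ (mesenchymal) and YFP- (non-mesenchymal) cells were sorted. In the H19DMD model the mutants were H19DMDfl/+; Nkx3.2+/Cre and the controls H19DMD+/+; Nkx3.2+/Cre, and the series describes this deletion of the differentially methylated domain as a model of Igf2 overexpression. Values were used for 3 control and 4 mutant mesenchymal libraries, and for 3 control and 4 mutant non-mesenchymal libraries, of 4 samples labelled in each of these groups. In the Igf2 model the mutants were Igf2+/fl; Nkx3.2Cre/+ and the controls Igf2+/+; Nkx3.2Cre/+, and only the non-mesenchymal cells are used, with 4 control and 3 mutant libraries; the remaining 10 of the 31 samples, 1 control of each H19DMD fraction and the mesenchymal cells of the Igf2 model, are not analysed here. The labels do not say whether the libraries of a group came from separate animals, so p-values measure only the spread between these libraries.

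The respiratory chain passes electrons from NADH (complex I) and succinate (complex II) through complex III and cytochrome c to oxygen at complex IV, and complex V, the ATP synthase, uses the resulting proton gradient to make ATP. Mitochondrial DNA encodes the hydrophobic cores of complexes I, III, IV and V and none of complex II, and all other subunits are nuclear. Mitochondrial genes are transcribed as long RNAs from both strands and then cut apart, whereas each nuclear gene has its own promoter, many of them bound by NRF1 or by the ETS-family factor GABP. Acinar cells and islet endocrine cells, the main non-mesenchymal cells of the pancreas, use this chain to fuel enzyme secretion and to couple glucose to insulin release.

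The mitochondrial members lie close together, and some share bases, which bears on what an FPKM value (fragments per kilobase of transcript, scaled to the library's mapped reads) can separate. The last 43 bases of mt-Atp8 (chrM:7766-7969, plus strand, 204 nt) are the first of mt-Atp6 (chrM:7927-8607), and the last 7 of mt-Nd4l (chrM:9877-10173, plus strand, 297 nt) are the first of mt-Nd4 (chrM:10167-11544). Both junctions are printed below on GRCm38, plus strand, with the shared bases in capitals, because mt-Atp8 had the highest value among the mitochondrial members in each library of the H19DMD model and mt-Nd4l the lowest in each of the 21 libraries.
mt-Atp8 and mt-Atp6, chrM:7912-7984: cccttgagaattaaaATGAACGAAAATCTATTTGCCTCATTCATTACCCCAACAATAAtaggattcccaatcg
mt-Nd4l and mt-Nd4, chrM:10152-10188: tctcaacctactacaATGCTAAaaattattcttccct
The start codon of the downstream gene opens each shared stretch. Of the 13 mitochondrial members, 12 are on the plus strand, and mt-Nd6 (chrM:13552-14070) alone is on the minus strand, where it overlaps mt-Nd5 by 14 bases. Whether counting used strand is not given in the sources used here, so reads from mt-Nd6 and from RNA of the opposite strand cannot be told apart.

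Promoters of nuclear members were examined for 3 short motifs and for TATAAA, on both strands. RefSeq windows (GRCm38.p6) from 250 bases before to 50 after each start were used. Windows were found for 68 of the 88 nuclear members (73 windows). The NRF1 core GCATGCG was present in 15.1% of members' windows against 3.58% of all 32851 windows, the ETS core CCGGAAG in 24.7% against 8.86%, and the YY1 core ATGGCGG in 16.4% against 4.05%, while TATAAA was present in 11% against 13.6%. Among the windows of protein-coding genes alone the shares were 4.44% for NRF1, 11.6% for ETS, 5.25% for YY1 and 12.6% for TATAAA. Of the 68 members, 6 held both NRF1 and ETS cores and 36 held none of NRF1, ETS and YY1. The windows of 3 members that the fraction comparisons below turn on are printed 5′ to 3′ on the gene's strand, here minus in each, with NRF1, ETS and YY1 matches of either orientation in capitals.
Atp5l, chr9:44920693-44920992: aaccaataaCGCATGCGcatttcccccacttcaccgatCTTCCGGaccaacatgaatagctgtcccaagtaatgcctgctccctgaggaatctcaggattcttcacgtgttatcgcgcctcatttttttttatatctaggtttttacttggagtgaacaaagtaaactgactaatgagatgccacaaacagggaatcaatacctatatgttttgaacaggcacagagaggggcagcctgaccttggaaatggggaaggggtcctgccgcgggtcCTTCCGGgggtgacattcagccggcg
Sdhd, chr9:50603800-50604099: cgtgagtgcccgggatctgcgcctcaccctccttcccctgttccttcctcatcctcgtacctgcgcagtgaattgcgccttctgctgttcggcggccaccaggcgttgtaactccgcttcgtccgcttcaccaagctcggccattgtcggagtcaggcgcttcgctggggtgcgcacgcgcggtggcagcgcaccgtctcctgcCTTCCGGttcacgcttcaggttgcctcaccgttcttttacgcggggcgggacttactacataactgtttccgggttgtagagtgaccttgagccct
Cox7a2l, chr17:83514284-83514583: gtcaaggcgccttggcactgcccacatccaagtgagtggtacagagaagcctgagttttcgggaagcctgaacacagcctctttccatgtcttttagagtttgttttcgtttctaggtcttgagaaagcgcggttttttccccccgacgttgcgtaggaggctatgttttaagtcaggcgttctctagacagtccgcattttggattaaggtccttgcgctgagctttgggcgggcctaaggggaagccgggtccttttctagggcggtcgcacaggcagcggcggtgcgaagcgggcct
The Atp5l window holds an NRF1 and an ETS core near its start and a second ETS core near its end, the Sdhd window holds 1 ETS core, and the Cox7a2l window holds none of these letters. The Cox7a2l window lies inside the span that GENCODE M21 lists for the gene (chr17:83501918-83517330) and not at the 5′ end of that span. The match is a description of the sequence and does not show binding.

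The sorted fractions carried the markers of their labels. Over 11 mesenchymal markers the summed FPKM was 5539 to 7121 in the 7 mesenchymal libraries and 161 to 283 in the 7 non-mesenchymal libraries of the H19DMD model, where Nkx3-2 was listed at 0 in both groups. Over 10 acinar markers the sum was 559 to 1767 in mesenchymal and 38403 to 102531 in non-mesenchymal libraries, and over 8 endocrine markers 33.8 to 214 and 10701 to 29079. H19 itself was at 2437 to 2454 FPKM in control and 565 to 835 FPKM in mutant mesenchymal libraries and Igf2 was at 3648 to 4024 and 6162 to 7923 FPKM. In the non-mesenchymal cells of the Igf2 model, which do not carry the Cre-driven deletion by design, Igf2 was at 71.5 to 144 FPKM in controls and 25.0 to 147 FPKM in mutants. The files hold FPKM and no counts, so sequencing depth is unknown.

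Mitochondrial members were expressed far above nuclear members in all 6 groups. The median of the group medians was 1581, 2284, 1818 and 1632 FPKM for the 13 mitochondrial members in control mesenchymal, mutant mesenchymal, control non-mesenchymal and mutant non-mesenchymal cells of the H19DMD model. For the 88 nuclear members it was 28.3, 26.8, 36.4 and 36.2 FPKM. In the Igf2 model, whose table was normalised separately and so is not compared with these values, the mitochondrial medians were 1090 and 1416 FPKM in controls and mutants and the nuclear medians 46.7 and 50.1 FPKM.

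mt-Atp8, a small subunit of the ATP synthase, had the highest level of any member in the H19DMD model, at 12432, 8197 and 4541 FPKM in replicates 1 to 3 of control mesenchymal cells. mt-Co1, the catalytic subunit of complex IV, followed at 7179, 6443 and 3861 FPKM, and mt-Atp6, the proton channel subunit beside mt-Atp8, was at 5823, 4018 and 1902 FPKM. In each of the 3 genes replicate 3 was lowest, and it was lowest in 12 of the 12 mitochondrial members with values above 0 in this group. mt-Cytb, the only mitochondrial subunit of complex III, was at 4469, 3479 and 2064 FPKM. The complex I subunits mt-Nd1, at 3889, 3089 and 1654 FPKM, and mt-Nd4, at 3054, 2388 and 1358 FPKM, stood above mt-Nd2, at 758, 560 and 311 FPKM, and mt-Nd3, at 539, 497 and 226 FPKM. Genes cut from shared primary transcripts thus differed widely in FPKM. Amplification and division by transcript length can distort short genes such as mt-Atp8 (204 nt), and their part in this spread was not tested. In the Igf2 mutants mt-Co1 had a higher median than mt-Atp8, 5311 against 5214 FPKM.

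mt-Nd4l, a complex I subunit, was listed at 0 in 19 of 21 libraries and reached 3.30 FPKM at most, while mt-Nd4, with which it shares 7 bases, was at 878 FPKM or more in every library. mt-Nd4l is a gene that every cell uses, so a listed 0 is not read as absence of RNA. Differences against groups with listed zeros are on the log2(FPKM + 1) scale and are no measure of fold. Cox7b2 and Cox8c were listed at 0 in all 21 libraries. Atp5l2 was at 0 in 20, Cox6a2 and Cox8b in 18 each, Cox4i2 in 10, Cox7a1 in 6, Ndufa4l2 in 5 and Sdhaf1 in 1. Several of these are tissue-specific isoforms: Cox6a2, Cox7a1 and Cox8b are the heart and muscle forms of their subunits, and Cox8c and Cox7b2 are known from testis. The summed level of 7 skeletal and cardiac muscle markers was 0.723 to 5.76 FPKM in the H19DMD model and, in the Igf2 model, 3.07 to 6.69 FPKM in controls and 1.02 to 10.3 FPKM in mutants, with Myod1 and Myog listed at 0 in both. Cox6a2, at 2.00 FPKM, and Atp5l2, at 1.63 FPKM, were highest in Igf2 mutant replicate 1, where that sum was 10.1 FPKM, and the part of muscle cells in these values was not tested.

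Among nuclear members Atp5b, the catalytic beta subunit of the ATP synthase, was highest, at 1152, 1282 and 1680 FPKM in control mesenchymal and 1731, 1605 and 1718 FPKM in control non-mesenchymal cells. It made up 19.5% to 35.0% of the summed nuclear FPKM of a library. It also holds 2 snoRNA features, 72 and 74 nt long, which were above 0 in 7 and 3 of the 21 libraries. Among the next highest were Cox7b, a small complex IV subunit, with a median of 264 and 405 FPKM in these groups, and Cox4i1, the common form of a regulatory subunit of complex IV, at 183, 146 and 152 FPKM against 143, 253 and 184 FPKM. Of the common isoforms, Cox6a1 was at 131 to 179 FPKM in control mesenchymal cells, where Cox6a2 was listed at 0, and Cox8a at 78.8 to 148 FPKM, where Cox8b was listed at 0. In complex II, which has no mitochondrial subunit, Sdhb, the iron-sulfur subunit, was at 13.1, 11.5 and 11.4 FPKM, and Sdha, the flavoprotein, at 46.0, 60.2 and 46.4 FPKM.

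Libraries of a group differed more in their mitochondrial than in their nuclear members, except in control non-mesenchymal cells. The median coefficient of variation was 39.9%, 31.0%, 11.7% and 26.2% for mitochondrial members in control mesenchymal, mutant mesenchymal, control non-mesenchymal and mutant non-mesenchymal cells, against 20.6%, 28.7%, 27.8% and 21.2% for nuclear members. In the Igf2 model it was 41.7% and 27.6% against 20.5% and 19.2% in controls and mutants. The mitochondrial members moved together from library to library. In the Igf2 controls replicate 2 was highest and replicate 4 lowest in 12 of 12, and replicates 1 and 3 of the mutant non-mesenchymal cells held the top places in 11 of 12. Among the nuclear members the common shift was clearest in control non-mesenchymal replicate 1, which was the lowest of its group in 70 of 80.

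**Figure D1:**
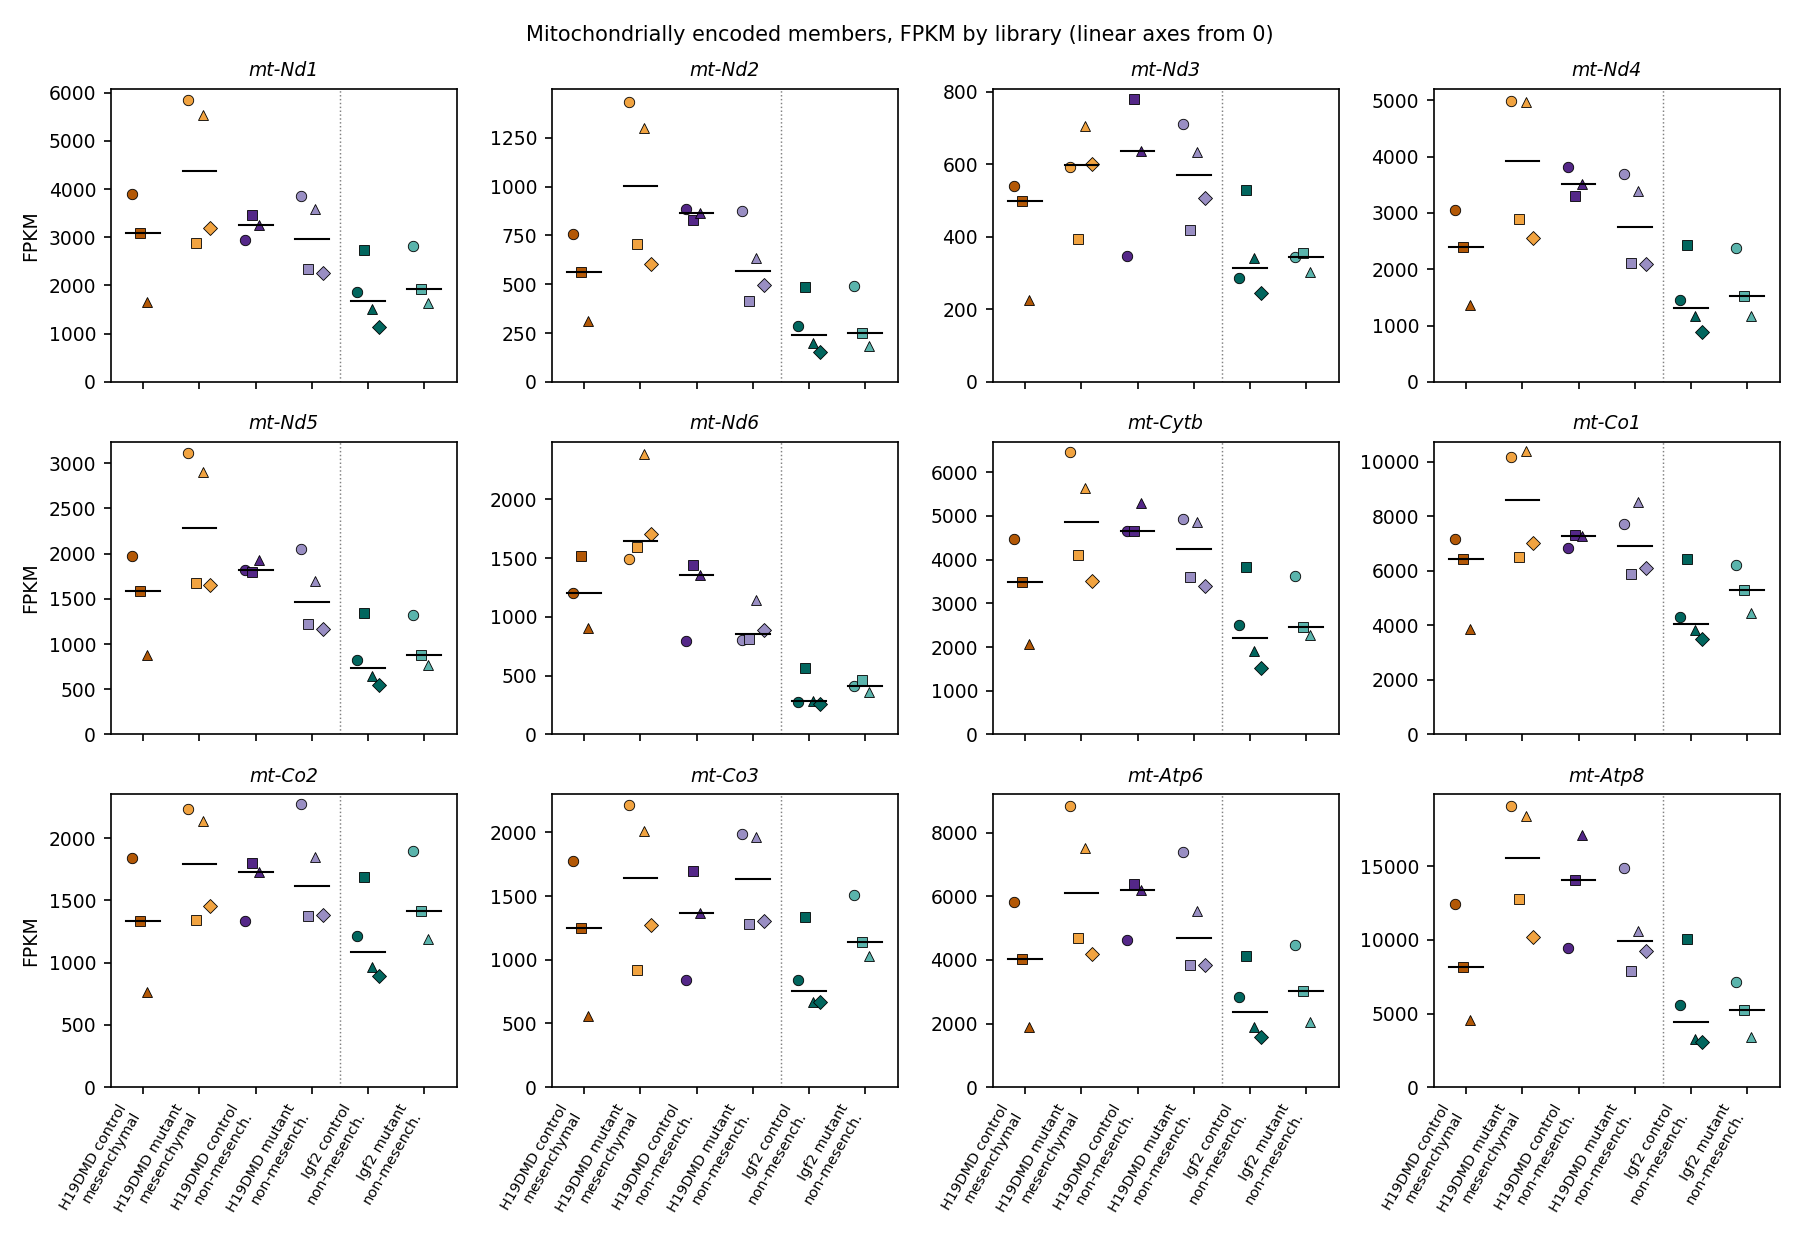
FPKM (linear axes from 0) of the 12 mitochondrial members above 0, by library. Marker shape gives the replicate number, bars give group medians, and the dotted line separates the H19DMD table from the separately normalised Igf2 table. Replicate 3 of the control mesenchymal cells is the lowest of its group in all 12 panels, and mt-Nd6 in mutants is the panel where mesenchymal and non-mesenchymal libraries do not overlap.

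The balance of the 2 genomes was described by the summed FPKM of the 13 mitochondrial members over that of the 88 nuclear members. It was 8.59, 6.94 and 3.91 in control mesenchymal cells, and 11.9, 8.23, 14.9 and 9.28 in mutant mesenchymal cells. In non-mesenchymal cells it was 7.76, 6.92 and 7.38 in controls and 7.45, 4.81, 7.20 and 4.56 in mutants. All 4 mutant mesenchymal libraries were above all 4 mutant non-mesenchymal libraries, whereas the control fractions overlapped.

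Within mutants the mean log2 ratio was 0.88 higher in mesenchymal than in non-mesenchymal cells. Within controls it was lower in mesenchymal cells by 0.26 (log2 difference −0.26), and this turned to 0.07 without control mesenchymal replicate 3. The fraction difference was thus 1.13 higher in mutants than in controls. The mutant minus control difference was 0.81 in mesenchymal cells, where the smallest value with 1 library left out was 0.48, without that same replicate, and −0.33 in non-mesenchymal cells. No p is given for this ratio because it is a score over the chosen genes.

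Both sums contributed to these ratios. The mitochondrial sums were 44938, 34354 and 19022 FPKM in control and 66518, 40523, 63909 and 37984 FPKM in mutant mesenchymal cells, overlapping between genotypes. The nuclear sums were 5230, 4953 and 4869 FPKM and 5604, 4924, 4303 and 4092 FPKM in the same libraries, also overlapping. In mutant non-mesenchymal cells the nuclear sums were 6875, 6494, 6171 and 7166 FPKM, all above those of the mutant mesenchymal cells. As a share of the nuclear protein-coding total they overlapped, at 1.34% to 1.80% in mutant mesenchymal and 1.62% to 1.92% in mutant non-mesenchymal libraries. The mitochondrial sums of the same non-mesenchymal libraries were 51206, 31237, 44462 and 32709 FPKM, which overlapped those of the mutant mesenchymal cells.

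**Figure D2:**
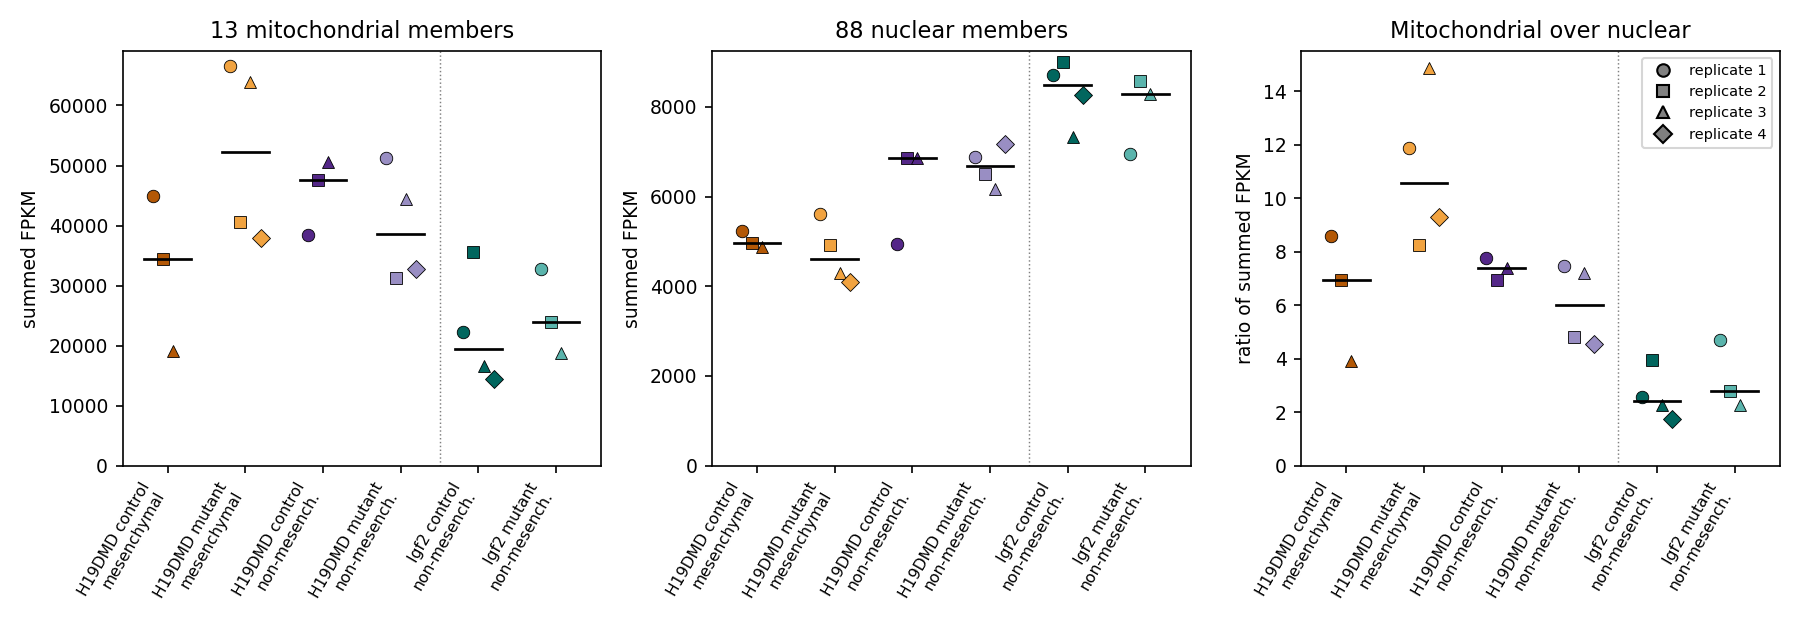
Summed FPKM of the 13 mitochondrial members, summed FPKM of the 88 nuclear members, and their ratio, by library, on linear axes from 0. Marker shape gives the replicate number, bars give group medians, and the dotted line separates the 2 tables. The ratio lies between 8.23 and 14.9 in mutant mesenchymal cells and between 4.56 and 7.45 in mutant non-mesenchymal cells.

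Mesenchymal and non-mesenchymal cells of H19DMD controls were compared first, which asks how the chain differs between the fractions without the deletion. The test was limma on log2(FPKM + 1), with p-values adjusted over all genes that averaged 1 FPKM or more, and differences are mesenchymal minus non-mesenchymal on that scale. The added 1 makes the difference of a gene near 0 too small. Of 82 nuclear members tested, 1 was higher (Ndufa4l2) and 2 were lower (Atp5l and Cox7a2l) in mesenchymal cells at an adjusted p under 0.05. Over all genes the same test called 12.4% higher and 10.3% lower, so few members were called beside the background. An unadjusted p under 0.05 was found for 11 of the 82, against 34.2% of all genes. The median difference of the nuclear members was −0.29 and that of all genes 0.08. The nuclear median was −0.47 without control non-mesenchymal replicate 1, and −0.19 without control mesenchymal replicate 3 or control non-mesenchymal replicate 2 or 3.

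Ndufa4l2 (chr10:127514967-127517154) encodes a hypoxia-inducible relative of the complex IV subunit Ndufa4. It was at 1.49, 3.25 and 3.25 FPKM in the mesenchymal libraries and at 0, 0.283 and 0 FPKM in the non-mesenchymal ones, without overlap. It passed the filter of 1 FPKM through the mesenchymal libraries, where it is high, which favoured a call of higher, and nothing is read from that call. The difference was 1.71 (SE 0.35, limma adjusted p = 0.0179, exact permutation p = 0.1, the smallest that 3 against 3 libraries can give). Markers of smooth muscle and pericytes, cells in which Ndufa4l2 is also known to be expressed, were higher in the mesenchymal fraction too. The sum over 8 of them was 806, 502 and 841 FPKM in mesenchymal replicates 1 to 3 and 12.4 to 17.4 FPKM in these non-mesenchymal libraries. Within the mesenchymal fraction the sum did not follow the gene, which was at 3.25 FPKM in both replicates 2 and 3. The part of such cells in the result was not tested. In bulk samples fewer cells of a type and less RNA per cell cannot be told apart.

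Atp5l (chr9:44912557-44920742, minus strand) encodes subunit g of the membrane part of the ATP synthase. Its level was 23.4, 24.8 and 18.0 FPKM in mesenchymal and 34.7, 49.0 and 61.6 FPKM in non-mesenchymal cells, so the groups did not overlap. It fell by 1.08 (SE 0.26, limma adjusted p = 0.0326). Cox7a2l, which helps complexes III and IV join into supercomplexes, was at 60.3, 70.8 and 55.5 FPKM against 90.4, 113 and 115 FPKM, again without overlap, and fell by 0.76 (SE 0.18, limma adjusted p = 0.0305). With libraries set to equal nuclear protein-coding totals its difference was −0.41 (limma adjusted p = 0.124). Its relative Cox7a2, a complex IV subunit, was at 42.1, 37.8 and 44.8 FPKM against 20.9, 50.5 and 46.9 FPKM, which overlapped (limma adjusted p = 0.778).

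The 3 calls rest on few libraries, and all 3 were lost with the replicate number as a block, a grouping that the labels do not state. No member was called lower without control mesenchymal replicate 3, or without control non-mesenchymal replicate 2 or 3; 1 was without control mesenchymal replicate 2, and 5 were without control non-mesenchymal replicate 1. Ndufa4l2 was not called without control mesenchymal replicate 2 or 3 or control non-mesenchymal replicate 3. Setting the libraries to equal totals of nuclear protein-coding genes moved the median of all genes to 0.38 and that of the nuclear members to 0.06, with 4 members called higher and 1 lower and 70.0% of all calls higher, against 54.6% as deposited. Relative to all genes the nuclear median stayed below 0, at −0.37 as deposited and −0.32 with that scaling.

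Of all 82 nuclear members tested, called ones included, 63 were below 0 as deposited, whereas 47 of 82 were above 0 with libraries set to equal nuclear protein-coding totals. As deposited, below 0 were 26 of 37 complex I, 4 of 6 complex II, 8 of 9 complex III, 9 of 13 complex IV and 16 of 17 complex V members tested. Groups did not overlap in 11 members that were lower, against 17.4% of all genes, and in 4 that were higher, against 22.4%.

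None of the 12 mitochondrial members tested was called in controls by limma, and none had an unadjusted p under 0.05. Their median difference was −0.45, with 11 of 12 below 0, and the median was −0.09 without control mesenchymal replicate 3 and −0.70 without control mesenchymal replicate 1. With libraries set to equal nuclear protein-coding totals it was −0.09, with 4 of 12 above 0. mt-Nd2, mt-Nd4 and mt-Cytb did not overlap between the fractions: mt-Nd2 was at 758, 560 and 311 FPKM in mesenchymal and 884, 830 and 866 FPKM in non-mesenchymal cells (difference −0.75, 95% interval −1.59 to 0.09, limma adjusted p = 0.181), and −0.40 with that scaling. mt-Nd6 was at 1208, 1519 and 909 FPKM against 791, 1446 and 1354 FPKM, with a difference of 0.04 (95% interval −0.77 to 0.84), and 0.39 with that scaling.

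The same comparison was made in H19DMD mutants. Of 83 nuclear members tested 18 were lower and 2 higher at a limma adjusted p under 0.05, against 15.1% lower and 13.5% higher over all genes. An unadjusted p under 0.05 was found for 29 nuclear members, against 39.1% of all genes. Groups did not overlap in 17 nuclear members that were lower and 1 that was higher, against 16.6% and 14.4% of all genes. The median difference was −0.49 for nuclear members and −0.03 for all genes. Of the 12 mitochondrial members 1 was called, mt-Nd6, and 11 were above 0, with a median of 0.35. That median was 0.22 without mutant mesenchymal replicate 1 and 0.23 without mutant mesenchymal replicate 3, each with 9 of 12 above 0, and 0.67 with 12 of 12 above 0 when libraries were set to equal nuclear protein-coding totals. The controls and mutants are separate libraries, and the test of the difference between them is the interaction given below.

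The 18 lower members came from all 5 complexes. In complex I they were Ndufs6, Ndufc2, Ndufb11 and, by its name, Ndufa4, which is now counted with complex IV. Ndufs6 (chr13:73319838-73328542, minus strand), an accessory subunit of the matrix arm, was at 23.2, 27.5, 11.8 and 17.0 FPKM in mesenchymal and 49.3, 59.3, 35.5 and 50.6 FPKM in non-mesenchymal cells. The highest mesenchymal library was below the lowest non-mesenchymal one, and the gene fell by 1.29 (SE 0.28, limma adjusted p = 0.0093). Ndufa4 was at 116, 35.3, 58.8 and 38.6 FPKM against 118, 108, 116 and 141 FPKM, where mesenchymal replicate 1 lay within the other group and the other 3 did not, and it fell by 1.11 (SE 0.35, limma adjusted p = 0.0484). Ndufc2 and Ndufb11, subunits of the membrane arm, fell by 1.10 and 0.73 without overlap. Ndufb11 shares 117 bases with Rbm10, on the opposite strand, which was at 2.77 to 5.14 FPKM in mutant mesenchymal and 6.16 to 12.1 FPKM in mutant non-mesenchymal libraries, in the same direction, and its part in that result was not tested.

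In complex II the called member was Sdhd (chr9:50596357-50603812, minus strand), a membrane anchor, whose promoter is printed above. It was at 30.7, 21.6, 9.99 and 16.6 FPKM in mutant mesenchymal and 49.0, 48.0, 43.5 and 55.6 FPKM in mutant non-mesenchymal cells. No library overlapped, and the gene fell by 1.37 (SE 0.30, limma adjusted p = 0.0109, exact permutation p = 0.0286, the smallest that 4 against 4 libraries can give). No other member of the complex was called: Sdhb was at 10.2, 16.7, 4.79 and 14.3 FPKM against 13.8, 7.32, 6.54 and 17.3 FPKM, with a difference of 0.01 (95% interval −0.97 to 0.99).

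In complex III all 9 members were below 0 as deposited, and 6 of 9 with libraries set to equal nuclear protein-coding totals, and 3 were called. Uqcrq (chr11:53427922-53430831, minus strand), a small subunit that binds next to cytochrome b, was at 36.4, 7.96, 20.4 and 8.74 FPKM against 56.9, 48.4, 33.8 and 42.6 FPKM. Mesenchymal replicate 1 overlapped the other group, and the gene fell by 1.49 (SE 0.46, limma adjusted p = 0.0417). Uqcrc2, a core subunit, fell by 0.80, and Uqcrfs1, the Rieske iron-sulfur protein, by 0.73, both without overlap.

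In complex IV Cox7a2l was at 71.8, 58.6, 48.4 and 38.0 FPKM in mesenchymal and 128, 145, 124 and 152 FPKM in non-mesenchymal cells, far from overlapping. It fell by 1.36 (SE 0.20, limma adjusted p = 0.0015). Cox7a2 (chr9:79755361-79759878, minus strand) was at 40.8, 38.7, 30.6 and 26.0 FPKM against 67.6, 63.6, 61.5 and 56.2 FPKM and fell by 0.87 (SE 0.17, limma adjusted p = 0.0062). Cox4i1, at 107 to 182 FPKM against 205 to 300 FPKM, fell by 0.77. It shares 352 bases with Emc8, on the opposite strand, at 5.41 FPKM or more in both groups, and 5986 bases with Gm20388, at 3.68 to 8.24 FPKM against 6.23 to 8.08 FPKM, and the levels of both overlapped between the fractions. Cox6b1, a subunit that faces the intermembrane space, fell by 1.12 (SE 0.31, limma adjusted p = 0.03), with 1 mesenchymal library at 91.5 FPKM inside the other group.

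In complex V all 17 members tested were below 0 as deposited, and 11 of 17 with libraries set to equal nuclear protein-coding totals, and 6 were called as deposited: Atp5b, Atp5c1, Atp5d, Atp5g2, Atp5g3 and Atp5h. Atp5b was at 1402, 1322, 1048 and 973 FPKM in mesenchymal and 1843, 1800, 1581 and 2115 FPKM in non-mesenchymal cells and fell by 0.64 (SE 0.18, limma adjusted p = 0.0295). The rotor genes Atp5g2 and Atp5g3, which encode the same mature c subunit, fell by 0.88 and 0.52, Atp5c1 and Atp5d of the central stalk by 0.53 and 0.59, and Atp5h of the side stalk by 0.61. With that scaling the differences of these 6 were between −0.58 and −0.21, and none was called (limma adjusted p 0.0887 to 0.279). Of these 6, Atp5d alone overlapped between the groups, and it shares 2204 bases with Dos. Dos was at 2.70 to 4.30 FPKM in mutant mesenchymal and 11.6 to 56.0 FPKM in mutant non-mesenchymal libraries, in the same direction as Atp5d, and its part in that result was not tested. Atp5l, called in controls, was at 38.0, 21.2, 17.6 and 41.1 FPKM against 68.3, 38.3, 49.5 and 36.6 FPKM here and overlapped (limma adjusted p = 0.135).

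The 2 members called higher in mutant mesenchymal cells were Ndufa4l2 and Cox4i2. Both are known as hypoxia-inducible isoforms, but a part of hypoxia was not tested. Ndufa4l2 was at 4.37, 4.88, 2.36 and 4.80 FPKM against 0, 1.21, 0 and 0 FPKM, without overlap, and rose by 2.03 (SE 0.36, limma adjusted p = 0.0036). Cox4i2 (chr2:152754173-152765037), the alternative form of Cox4i1, was at 1.27, 0.881, 4.42 and 5.64 FPKM against 0, 1.02, 0 and 0 FPKM and rose by 1.56 (SE 0.50, limma adjusted p = 0.0485), with non-mesenchymal replicate 2 above 1 mesenchymal library. Both genes passed the filter of 1 FPKM through the mesenchymal libraries, where they are high, which favoured a call of higher, and nothing is read from these calls. The 8 smooth muscle and pericyte markers summed to 176 to 765 FPKM in these mesenchymal and 13.4 to 22.7 FPKM in these non-mesenchymal libraries. Their part in the result was not tested.

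mt-Nd6 was at 1495, 1596, 2386 and 1704 FPKM in mutant mesenchymal cells and at 800, 813, 1141 and 893 FPKM in mutant non-mesenchymal cells. The lowest mesenchymal library was above the highest non-mesenchymal one, and the gene rose by 0.97 (SE 0.20, limma adjusted p = 0.0081, exact permutation p = 0.0286). It encodes a complex I subunit and is the 1 member on the minus strand. Use of strand in counting is not given, so its values may hold RNA of the opposite strand, and that part was not tested. On the plus strand mt-Co3, a complex IV subunit, was at 2216, 921, 2013 and 1272 FPKM against 1986, 1282, 1961 and 1303 FPKM, with a difference of −0.08 (0.24 with libraries set to equal nuclear protein-coding totals), and mt-Nd2 was at 1435, 706, 1300 and 604 FPKM against 876, 417, 636 and 497 FPKM, with 0.70 (limma adjusted p = 0.185). Both overlapped.

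Sdhd, Cox7a2l, Ndufs6 and mt-Nd6 kept a limma adjusted p under 0.05 in every alternative run and with each of the 8 libraries left out. Uqcrq and Ndufa4 lost the call in 7 of the 8 fits with 1 library left out, and Cox6b1 and Cox4i2 in 5 of 8. The count of nuclear members called lower moved with the libraries: it was 10, 9 and 8 without mutant mesenchymal replicates 2, 3 and 4, and 12 without mutant non-mesenchymal replicate 3, 8 without replicate 2 and 9 without replicate 4. The count called higher was 1, not 2, without mutant mesenchymal replicate 3 or 4 or mutant non-mesenchymal replicate 1, 3 or 4. With libraries set to equal nuclear protein-coding totals 6 were called lower (Sdhd, Ndufs6, Ndufc2, Cox7a2l, Cox7a2 and Uqcrc2) and 3 higher, 28 of 83 were above 0 against 10 as deposited, the median of all genes moved to 0.23 and that of the nuclear members to −0.19, and 64.1% of all calls were higher against 47.2% as deposited. Relative to all genes the nuclear median was −0.46 as deposited and −0.42 with that scaling, and the mitochondrial median 0.39 and 0.43.

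**Figure D3:**
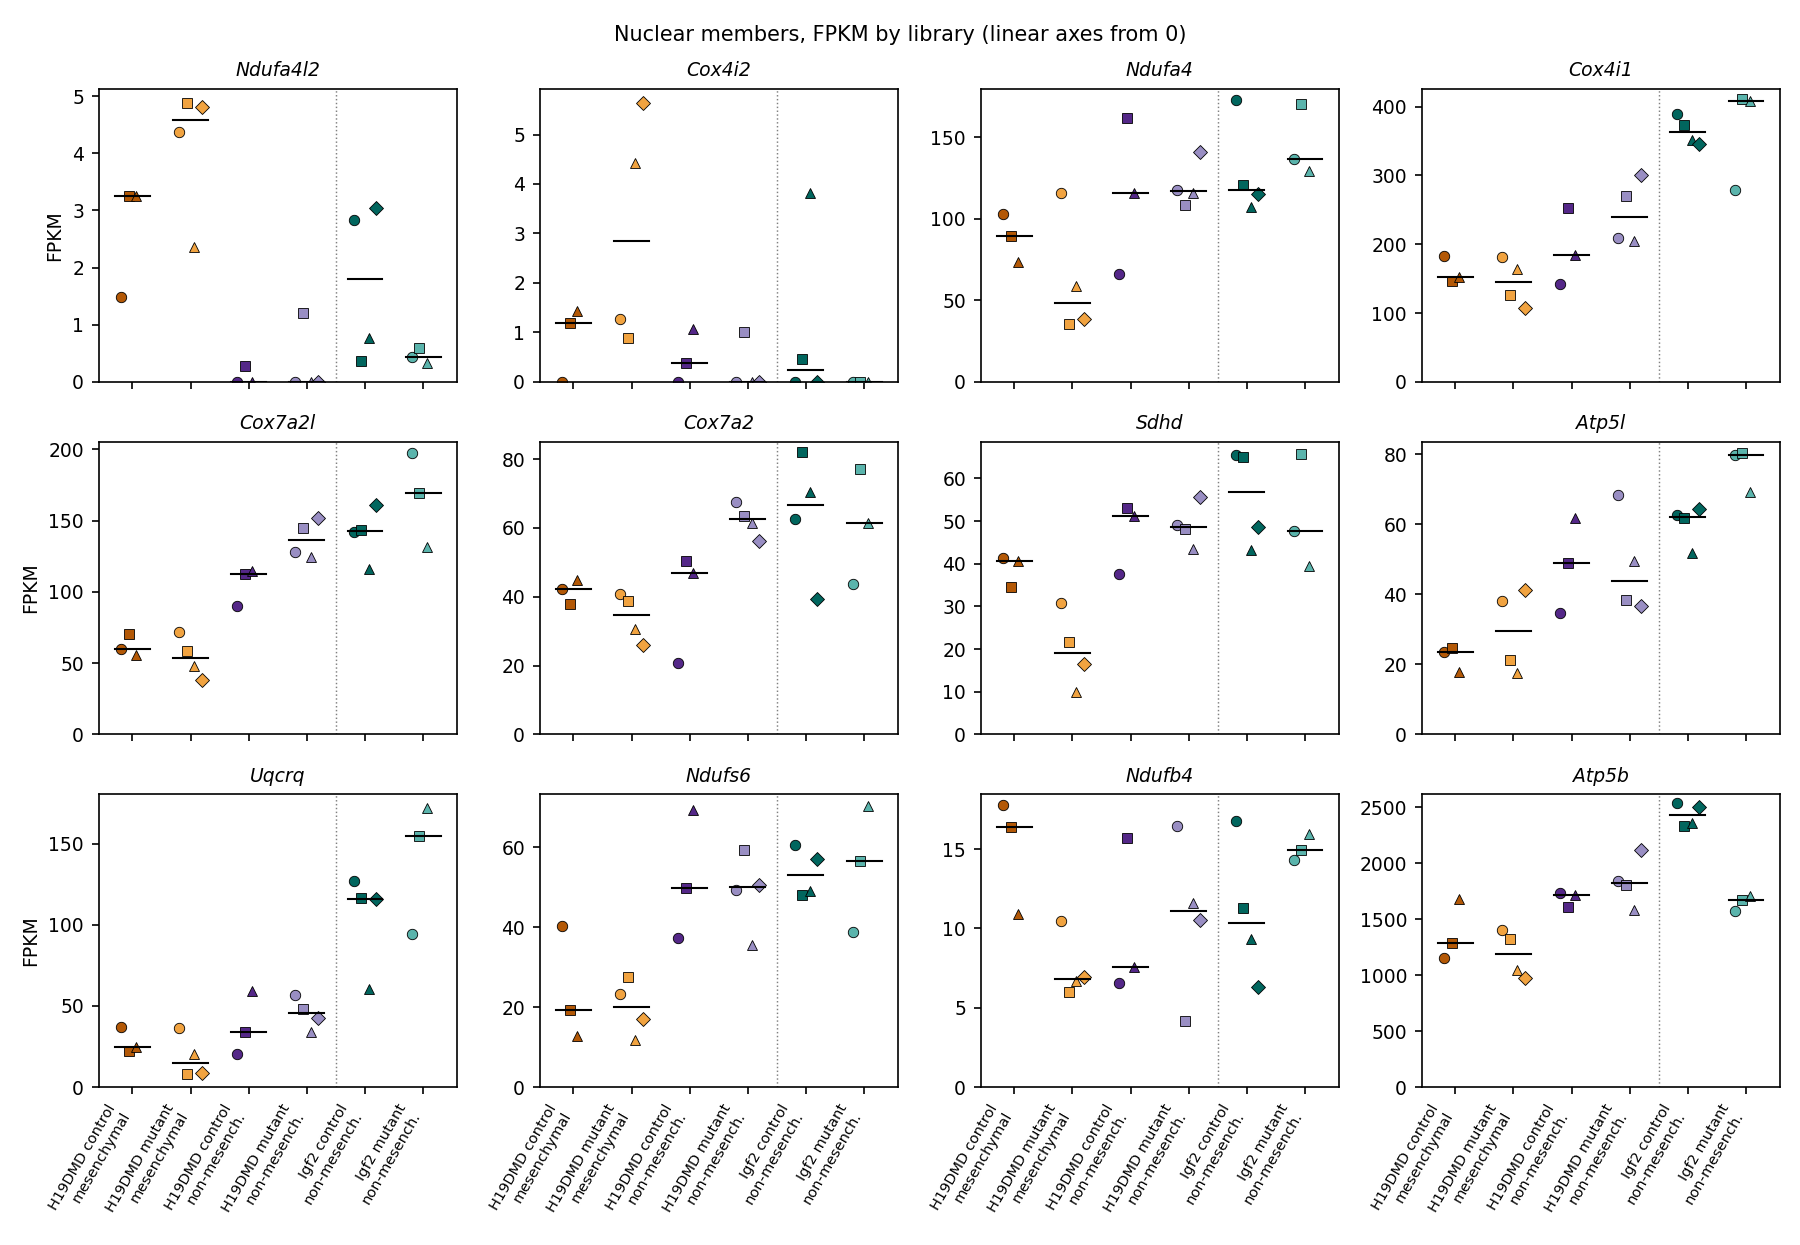
FPKM (linear axes from 0) of 12 nuclear members by library. Marker shape gives the replicate number, bars give group medians, and the dotted line separates the 2 separately normalised tables. Ndufa4l2 lies at 2.36 FPKM or above in the mutant mesenchymal libraries and at 1.21 FPKM or below in the mutant non-mesenchymal ones, and Cox7a2l, Cox7a2, Sdhd and Ndufs6 lie lower in the mutant mesenchymal than in the mutant non-mesenchymal libraries without overlap.

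Within mesenchymal cells the H19DMD deletion was compared with its controls. No member was called by limma in either direction, beside 0.0694% of all genes, and 2 of 83 nuclear and none of 12 mitochondrial members had an unadjusted p under 0.05, against 4.76% of all genes. The mitochondrial members were all above 0, with a median of 0.60 against −0.07 for all genes, which became 0.31 without control mesenchymal replicate 3. The nuclear median was −0.16, with 29 of 83 above 0. It was −0.07 without mutant mesenchymal replicate 4, where that of all genes was −0.10, −0.09 without mutant mesenchymal replicate 3, −0.08 without control mesenchymal replicate 1 and −0.08 with median-ratio scaling. Markers of other cell types also differed: 6 ductal markers summed to 34.9 to 80.8 FPKM in controls and 14.6 to 33.8 FPKM in mutants, without overlap, and the 8 smooth muscle and pericyte markers had a median sum of 806 FPKM in controls (502 to 841) and 433 FPKM in mutants (176 to 765). Their part in the values of the members was not tested.

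mt-Atp8 had the largest mitochondrial difference, 0.92 (SE 0.43, limma adjusted p = 0.927, and 0.54 without control mesenchymal replicate 3), at 12432, 8197 and 4541 FPKM in controls and 19104, 12798, 18395 and 10235 FPKM in mutants. mt-Nd1 was at 3889, 3089 and 1654 FPKM and 5840, 2882, 5542 and 3189 FPKM, a difference of 0.62 with a 95% interval from −0.35 to 1.58. Mutant replicates 1 and 3 were the high ones in both genes and in 10 of 12 mitochondrial members, and no mitochondrial member was free of overlap between the genotypes.

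Of the nuclear members Ndufb4 and Sdhd had the smallest p-values. Ndufb4, an accessory subunit of complex I, was at 17.8, 16.4 and 10.9 FPKM in control and 10.4, 5.96, 6.72 and 6.91 FPKM in mutant mesenchymal cells, a difference of −0.91 (SE 0.26, limma p = 0.0092, adjusted p = 0.927, exact permutation p = 0.0571, the smallest that 4 against 3 libraries can give). Sdhd was at 41.4, 34.6 and 40.7 FPKM and 30.7, 21.6, 9.99 and 16.6 FPKM, a difference of −1.04 (SE 0.35, limma p = 0.0204, adjusted p = 0.927, exact permutation p = 0.0571). Neither gene overlapped between the genotypes, and neither passed the test after adjustment. Nuclear members without overlap numbered 4 lower and 1 higher, against 3.77% and 1.62% of all genes.

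In non-mesenchymal cells, which do not carry the Cre-driven deletion by design, H19DMD mutants and controls gave no called member by limma, beside 0.0677% of all genes, and 4 nuclear members and no mitochondrial one had an unadjusted p under 0.05, against 5.35% of all genes. The nuclear median was 0.10, but −0.08 without control replicate 1 and 0.24 without control replicate 2. The mitochondrial median was −0.21, with 2 of 12 mitochondrial members above 0; with single libraries left out the mitochondrial median was between −0.32 and −0.10. mt-Nd2 was at 884, 830 and 866 FPKM in controls and 876, 417, 636 and 497 FPKM in mutants, a difference of −0.56 (95% interval −1.18 to 0.06).

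Other measures also differed between these libraries. Igf2 was at 45.2 to 53.2 FPKM in controls and 45.4 to 157 FPKM in mutants, and the 8 endocrine markers summed to 19240 to 29079 FPKM and 10701 to 19859 FPKM. The 5 erythroid markers in the table summed to 113 to 368 FPKM, with a median of 114 FPKM, in controls and to 140 to 1497 FPKM, with a median of 778 FPKM, in mutants. Their part in the values of the members was not tested.

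Cox7a2, at 20.9, 50.5 and 46.9 FPKM in controls and 67.6, 63.6, 61.5 and 56.2 FPKM in mutants, differed by 0.74 (SE 0.30, limma adjusted p = 0.894) without overlap, control replicate 1 being the lowest library. Without that library the difference was 0.35. Cox7a2l, at 90.4, 113 and 115 FPKM and 128, 145, 124 and 152 FPKM, differed by 0.37 (SE 0.16, limma adjusted p = 0.894), also without overlap. In all, 4 nuclear members were higher without overlap, against 3.47% of all genes, and none was lower, against 2.2%.

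Whether the genotype difference itself differed between the fractions was tested as an interaction, mesenchymal minus non-mesenchymal, over the 14 libraries of the H19DMD table. No member was called by limma, beside 0.0117% of all genes. All 12 mitochondrial members were above 0, with a median of 0.88 against −0.11 for all genes, and 4 of them had an unadjusted p under 0.05, against 6.35% of all genes. These were mt-Nd2 (1.45, SE 0.53), mt-Atp8 (1.26), mt-Nd4 (1.15) and mt-Nd6 (0.93), each with a limma adjusted p of 0.755. Without control mesenchymal replicate 3 the median was 0.51 and 11 of 12 were above 0.

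The nuclear median in the interaction was −0.22, beside the −0.11 of all genes, with 25 of 83 above 0, and 3 had an unadjusted p under 0.05. With 1 library left out this median ranged from −0.34 to −0.05, and without control non-mesenchymal replicate 1 it was −0.05, the same as the −0.05 of all genes in that fit. It was −0.12 without control mesenchymal replicate 1 or mutant mesenchymal replicate 3, and −0.08 with median-ratio scaling. Among these 3, Sdhd had −1.11 (SE 0.40) and Cox7a2 −1.04 (SE 0.37), both with a limma adjusted p of 0.755. Cox7a2 had −0.65 without control non-mesenchymal replicate 1.

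Non-mesenchymal cells of the Igf2 model gave no called member by limma, beside 0.0631% of all genes, and 4 nuclear and no mitochondrial members had an unadjusted p under 0.05, against 5.28%. The mitochondrial median difference, mutant minus control, was 0.27, with 11 of 12 above 0, and the nuclear median 0.07, against −0.03 for all genes. With libraries set to equal nuclear protein-coding totals the median of all genes moved to −0.29, the nuclear median to −0.23 and the mitochondrial median to −0.04. The nuclear median was −0.02 without mutant replicate 2, −0.01 without control replicate 3 and 0.16 without mutant replicate 1. The mitochondrial median also moved with single libraries: it was 0.04 without mutant replicate 1, 0.09 without control replicate 4, 0.18 without control replicate 3, 0.50 without control replicate 2 and 0.44 without mutant replicate 3.

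mt-Co3 had the largest mitochondrial difference, 0.52 (95% interval −0.16 to 1.20), at 840, 1339, 669 and 667 FPKM in controls and 1505, 1138 and 1031 FPKM in mutants. The difference was 0.22 with libraries set to equal nuclear protein-coding totals. mt-Atp8 had 0.05, at 5611, 10066, 3269 and 3038 FPKM and 7171, 5214 and 3426 FPKM. Both overlapped, with control replicate 2 the high library of its group. The ratio of mitochondrial to nuclear sums was 2.56, 3.95, 2.27 and 1.75 in controls and 4.71, 2.79 and 2.28 in mutants; its log2 difference was 0.30, and 0.001 without mutant replicate 1.

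Atp5b (chr10:128083273-128090391) was the nuclear member with the smallest p in the Igf2 model. It was at 2536, 2332, 2355 and 2497 FPKM in controls and 1576, 1672 and 1706 FPKM in mutants. Within each group the libraries were close and the groups did not overlap, with a difference of −0.56 (95% interval −0.89 to −0.22, limma p = 0.0057, adjusted p = 0.919, exact permutation p = 0.0571). With libraries set to equal nuclear protein-coding totals the difference was −0.86 (limma adjusted p = 0.338). The sum of 10 acinar markers was higher in mutants, the opposite direction to Atp5b, at 28976 to 42142 FPKM in controls and 85971 to 97688 FPKM in mutants. The sum of 6 ductal markers was lower in mutants, the same direction as Atp5b, at 950 to 1300 FPKM in controls and 780 to 948 FPKM in mutants. The part of these cells in the result was not tested. Of the other 16 members with Atp5 names tested none was called either. Atp5l was at 62.7, 61.7, 51.8 and 64.3 FPKM in controls and 79.8, 80.4 and 69.1 FPKM in mutants. Atp5g2 was at 49.6, 57.7, 71.3 and 62.3 FPKM and 73.3, 79.7 and 78.2 FPKM. Both were higher in all 3 mutants than in any control without passing the test (limma adjusted p = 0.919 for Atp5g2). Nuclear members without overlap numbered 5 higher and 1 lower, against 2.65% and 3.37% of all genes.

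**Figure D4:**
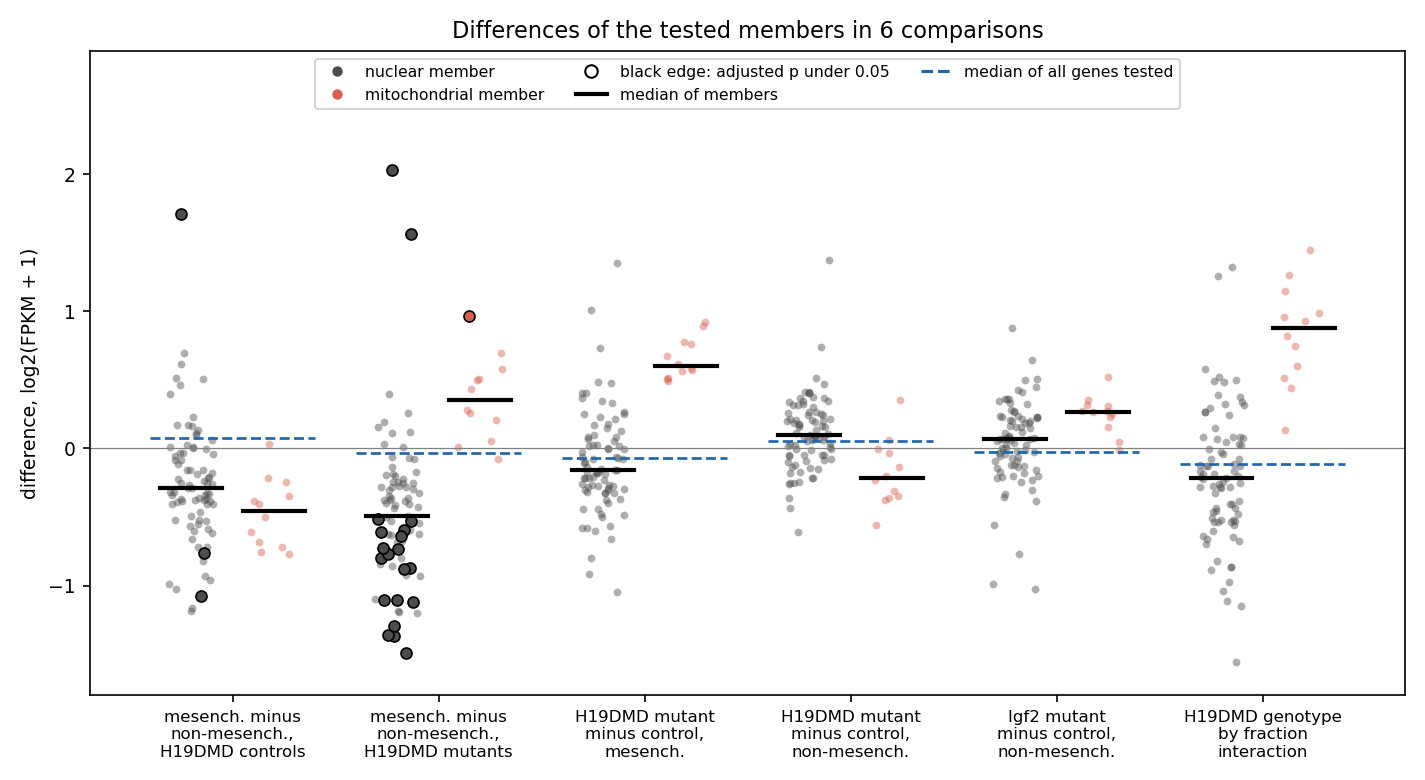
Differences on the log2(FPKM + 1) scale for each tested member in 6 comparisons, nuclear members in grey and mitochondrial members in red. A black edge marks a limma adjusted p under 0.05, black bars give the median of the members and blue dashed lines that of all genes tested. Black edges appear in the fraction comparisons alone, 3 in controls and 21 in mutants, and the mitochondrial members lie above 0 in the interaction.

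Genes that build and serve the chain were described beside it from lists of related mitochondrial genes. In control mesenchymal against non-mesenchymal cells limma called 0 of 35 assembly factors and 4 of 76 mitochondrial ribosomal proteins (1 higher and 3 lower), against 22.6% of all genes. Polg, the catalytic subunit of the mitochondrial DNA polymerase, was 1.64 higher (SE 0.32, adjusted p = 0.0158), and Tefm, the mitochondrial transcription elongation factor, 1.39 lower (log2 difference −1.39, SE 0.26, adjusted p = 0.012), and these were the 2 called of 20 genes of mitochondrial DNA and RNA. Of 10 biogenesis regulators 1 was called, Pprc1, a coactivator related to PGC-1, with 1.59. Of 19 carriers and import genes 1 was called, Slc25a4, with 0.65 (limma adjusted p = 0.0327).

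In mutants 6 of 35 assembly factors were called, 5 of them lower, against 28.6% of all genes. The complex IV factors Cox17, a copper chaperone, and Coa3 had −1.48 and −1.33, the complex I factors Ndufaf4 and Ndufaf1 −0.96 and −0.95, and Coa5 −0.56, whereas Ttc19, a complex III factor, had 1.42. None of the 20 genes of mitochondrial DNA and RNA was called by limma in mutants, where 4 had an unadjusted p under 0.05. All 6 called mitochondrial ribosomal proteins of 76 were lower, as were 2 of 16 citric acid cycle genes, Fh1 and Pdhb. Pprc1 was again the 1 biogenesis regulator called, with 0.85 (limma adjusted p = 0.0405). Among 19 carriers and import genes 4 were called, 3 of them lower. The ADP/ATP carriers went opposite ways, with Slc25a4, the heart and muscle form, at 0.88 and Slc25a5 at −1.24 (limma adjusted p = 0.0042 and 0.0031). Slc25a4 was the carrier also called higher in controls. In the mutant against control comparisons and the interaction no gene of these lists was called by limma.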

How the data were processed

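RNA was isolated with RNeasy Micro, 2 ng was amplified with Ovation RNA-seq V2, and libraries were read as 50 bp single ends on an Illumina HiSeq, per the labels' protocols. The authors deposited FPKM values in 1 table for each mouse model, and the submitters' processing notes name TopHat2 2.0.8, Cufflinks 2.2.1 and GRCm38. Annotation and use of strand are not given in the sources used here. Amplification from little RNA and division by transcript length can distort short genes. Depth is unknown, so no counting interval is given.

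limma 3.58.1 (lmFit, eBayes with trend, R 4.3.3) was run on log2(FPKM + 1) for genes averaging 1 FPKM or more in the libraries compared, within 1 table, two-sided, with Benjamini-Hochberg adjustment over all genes tested, and it was tested on simulated data. Single members also had two-sided exact permutation tests over libraries (scipy 1.17.1). Alternatives were pseudocount, filter, scaling, a replicate block, a fit over all groups and each library left out. Named members were the mitochondrial genes, isoform sets, core subunits, and called or smallest-p members. The members and lists were chosen with earlier results of these data known. The mesenchymal Igf2 comparison, planned, is not analysed here, and the values of 1 member are not reported here.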

Additional observations from a re-analysis of the deposited data

Results flagged for a closer look

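Of 147 values in groups of 4 libraries tested for 1 library far from the other 3, 6 were flagged, where chance flags about 1 in 20. In mutant non-mesenchymal cells of the H19DMD model replicate 2 alone was above 0 for Ndufa4l2, at 1.21 FPKM, and for Cox4i2, at 1.02 FPKM, the 2 hypoxia-inducible isoforms. Cox6b2, the testis form of a complex IV subunit, was at 8.15 FPKM in replicate 3 of that group and 21.9 to 23.1 FPKM in the others.

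In the Igf2 controls Cox4i2 was at 3.82 FPKM in replicate 3 against 0 to 0.472 FPKM, and Uqcrq was at 60.7 FPKM in the same library against 116 to 127 FPKM. mt-Nd6 was at 569 FPKM in replicate 2, the library highest in 12 of 12 mitochondrial members, against 262 to 289 FPKM. The part of these libraries in the results was not tested beyond leaving each out.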

How the results depend on the processing

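In controls the nuclear members called between the fractions (1 higher, 2 lower) were 0 higher with a mean of at least 5 FPKM, 1 higher and 6 lower with median-ratio scaling, 4 and 1 with scaling to nuclear protein-coding genes, and 3 and 5 with a fit over all groups. With 1 library left out they ranged from 0 to 1 higher and 0 to 5 lower. In mutants (2 higher, 18 lower, 1 mitochondrial) there was 1 higher without a filter, 0 higher with a mean of at least 5 FPKM, and 6 lower with scaling to nuclear protein-coding genes, and leaving out 1 library gave 1 to 2 higher and 8 to 21 lower. The cause was not tested. With the replicate number as a block the counts were 0 higher and 0 lower in controls, and 1 higher, 10 lower and 3 mitochondrial in mutants. The 3 mitochondrial members called with the block were mt-Nd2, mt-Nd5 and mt-Nd6. Nothing in the labels says that equal numbers mark a shared source, and they were not taken to pair the libraries. The correlations of their deviations were 0.007 to 0.067 in the fraction comparisons and −0.051 to 0.033 in the genotype comparisons. In the fraction comparisons 5 of 7 libraries correlated best with their own number, a hint from the data and not from the design. In mutants the mitochondrial sums were highest in replicates 1 and 3 of both fractions. Each mutant mesenchymal sum was also above the non-mesenchymal sum of the same number. With the block the SE of mt-Nd6 in mutants was 0.12. The log2 difference of the mitochondrial to nuclear ratio, with 1 library left out, ranged from −0.50 to 0.07 in controls, 0.72 to 1.01 in mutants, 0.48 to 1.05 for the mesenchymal and −0.44 to −0.21 for the non-mesenchymal H19DMD comparison, 0.001 to 0.53 for the Igf2 comparison and 0.81 to 1.38 for the interaction. No member was called in the mutant against control comparisons or the interaction under any alternative run. Unknown depth and 3 or 4 libraries a group can limit what is called, and their part here was not tested. With groups of the same size 22.6% and 28.6% of all genes were called between the fractions in controls and mutants.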
